A study of Mus musculus with 2 samples.

Results

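The genes described here encode the mitochondrial respiratory chain and ATP synthase, from both the nuclear and the mitochondrial genome. They are all genes whose symbols start with Nduf, Uqcr, Atp5, Cox4, Cox5, Cox6, Cox7, Cox8 or mt- and that had at least 20 unique molecular identifiers (UMIs, the counted RNA molecules) over both libraries. Of 31053 genes in the deposited matrices, 102 matched these symbols and 95 passed the threshold, 82 of them nuclear and 13 mitochondrially encoded. Just inside the threshold were Cox6a2 with 21 UMIs and Cox6b2 with 24, and just outside it were Cox7a1 with 9 and Cox4i2 with 6.

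The respiratory chain passes electrons from NADH through complex I, complex III and complex IV to oxygen, pumps protons across the inner mitochondrial membrane, and so drives ATP synthase. Its subunits come from 2 genomes: most are encoded in the nucleus and imported, while a small core set is encoded on the mitochondrial chromosome and transcribed there from long polycistronic RNAs. B cells that become antibody-secreting plasma cells take up a high secretory workload, and oxidative phosphorylation is known to supply much of the ATP used by such cells.

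The cells were flow-sorted B cells of female C57BL/6J mice, taken from the lamina propria of the colon, which is the connective tissue under the epithelium. The day 0 library came from untreated mice, and the day 14 library from mice given 2% dextran sulfate sodium (DSS), which injures the colon epithelium, in the drinking water for 7 days and then left for 7 days of recovery. There is 1 library per group, so no difference was tested, and all intervals are 95% intervals that cover counting error only. Both samples carry DSS as their treatment tag; that day 0 was untreated is taken from the titles and the design text. The sources used here do not state the age of the mice or how many were pooled.

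The day 0 library holds 3290 cells and 8690102 UMIs (median 2278.5 UMIs per cell), and the day 14 library 4692 cells and 12317052 UMIs (median 2241.5). The B cell receptor gene Cd79a was detected in 97.8% and 97.7% of cells. Levels are given as CPM, the UMIs of a gene or list per 1000000 UMIs of all genes other than immunoglobulin and mt- genes. Summed markers of T cells stood at 7.29 and 3.97 CPM and those of myeloid cells at 2.60 and 4.66 CPM, with at most 1 cell per library holding 5 or more UMIs of either list. Higher were markers of stromal or endothelial cells (60.1 and 50.4 CPM), dendritic cells (16.3 and 11.4) and epithelial cells (15.3 and 12.2). Cells with 5 or more UMIs of these lists numbered 0 and 0, 1 and 0, and 1 and 2. Neutrophil markers were at 0 at day 0 (4 of 4 genes) and at 34.4 CPM at day 14, where 2 cells held 5 or more UMIs of them. The libraries share 17 cell barcodes.

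The nuclear members have long been studied for common promoter elements, so the promoters are shown first, from 250 bases before to 50 bases after each start (RefSeq, GRCm38.p6). Of the 82 nuclear members 70 were found in the table. The palindromic core recognised by nuclear respiratory factor 1 (NRF1), spelled by the capitals of the windows that follow, was present on either strand in 7 of 70 (10.0%, exact interval 4.12% to 19.5%). A gene counted if any of its promoters matched. The core was present in 2.83% of 3607 protein-coding genes as abundant as most members (at least 384 UMIs, a cut not applied to the 70). At the members' own threshold of 20 UMIs it was present in 2.72% of 7715 protein-coding genes. These are its 7 matches in windows of 30 bases, 5′ to 3′ on the strand of the gene, with the letters searched in capitals.
Atp5g2, chr15:102671070-102671099, minus strand: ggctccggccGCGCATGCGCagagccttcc
Atp5k, chr5:108434430-108434459, minus strand: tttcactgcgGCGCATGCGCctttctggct
Cox6a1, chr5:115349101-115349130, minus strand: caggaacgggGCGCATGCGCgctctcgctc
Ndufa11, chr17:56717692-56717721, plus strand: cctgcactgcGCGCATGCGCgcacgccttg
Ndufaf4, chr4:24897960-24897989, plus strand: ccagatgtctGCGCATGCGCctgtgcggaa
Ndufaf5, chr2:140170652-140170681, plus strand: agtcccgttgGCGCATGCGCctaatagaaa
Uqcrc1, chr9:108936668-108936697, plus strand: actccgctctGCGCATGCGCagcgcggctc

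The 7 genes fall in every nuclear group: 2 of 15 ATP synthase promoters, 2 of 7 of complex I assembly factors, and 1 each of complexes I, III and IV. A second element, which contains the core bound by the factor YY1 and was also searched on both strands, was present in 5 of 70 members (7.14%, 2.36% to 15.9%). It was present in 2.50% of genes as abundant and in 2.23% of those with at least 20 UMIs. All 5 belong to complex I or its assembly, and all 5 matches start between 11 and 36 bases after the annotated start. They are printed the same way, with the element in capitals.
Ndufa9, chr6:126849095-126849124, minus strand: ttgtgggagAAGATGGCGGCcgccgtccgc
Ndufaf8, chr11:120098935-120098964, plus strand: gcagggcccAAGATGGCGGCgccctcgaga
Ndufs4, chr13:114388045-114388074, minus strand: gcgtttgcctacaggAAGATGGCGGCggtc
Ndufs6, chr13:73328433-73328462, minus strand: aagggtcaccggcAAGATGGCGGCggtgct
Ndufs7, chr10:80249464-80249493, plus strand: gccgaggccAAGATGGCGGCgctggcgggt

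Other elements were no more frequent in the members than in genes as abundant. The ETS core CCGGAAG was in 22.9% of member promoters against 26.7%, CCAAT in 42.9% against 43.1%, and TATAAA in 7.14% against 8.40%, each searched on both strands. None of the 12 windows printed overlaps another of these motifs. A match describes the letters and says nothing of binding in these cells.

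On the mitochondrial chromosome the genes lie close together and some overlap, which bears on how their counts can be read. mt-Atp8 (M, 7766 to 7969) and mt-Atp6 (M, 7927 to 8607) share 43 bases on the plus strand. The shared stretch is shown in capitals with 30 bases on each side (GRCm38).
mt-Atp8 and mt-Atp6, chrM:7897-7999, plus strand: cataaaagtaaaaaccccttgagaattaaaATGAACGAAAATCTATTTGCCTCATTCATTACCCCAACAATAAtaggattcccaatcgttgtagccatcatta

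The capitals open with the start codon of mt-Atp6 and close with the end of mt-Atp8. mt-Nd4l and mt-Nd4 share 7 bases, and mt-Nd5 and mt-Nd6, on opposite strands, share 14. The sources used here do not state how reads in shared bases, or reads from near-identical nuclear copies, were assigned.

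Between the days the whole chain differed little in size. All 82 nuclear members together stood at 16737 CPM at day 0 and 17667 CPM at day 14, a ratio of 1.06 (1.05 to 1.06). The 13 mitochondrially encoded members stood at 32807 and 35284 CPM, a ratio of 1.08 (1.07 to 1.08). For each nuclear UMI there were 1.96 mitochondrially encoded UMIs at day 0 and 1.997 at day 14. No member was 1.5-fold higher at day 14 (2.22% of all genes were), and 2 nuclear members were 1.5-fold lower (7.56% of all genes were).

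Those 2, Cox6a2 and Cox6b2, are also the least abundant members. Cox6a2, the subunit isoform known from heart and skeletal muscle, had 21 UMIs at day 0 and 0 at day 14, at least 10.0-fold lower against a floor of 3 UMIs in the day 14 library. Of its 21 UMIs 19 came from 1 cell, which held 0 Cd79a and 0 Ms4a1 UMIs but 8 UMIs of Siglech and 28 of Bst2, genes known from plasmacytoid dendritic cells. Cox6b2, the testis isoform, had 13 and 11 UMIs, a ratio of 0.590 (0.240 to 1.43).

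At the smaller step of 1.2-fold, 2 of 82 nuclear members were higher and 4 lower, where all genes gave 8.31% and 25.4%. Genes as abundant as most members (at least 384 UMIs) gave 2.51% and 14%. Of the 73 nuclear members at that abundance only Uqcr11 was past 1.2-fold, and it was higher. The 4 lower ones (Cox6a2, Cox6b2, Ndufaf3 and Ndufaf6) and the other higher one, Ndufaf5, had fewer UMIs. TMM size factors (the trimmed mean of the genes' ratios) multiply every ratio by 1.08. With them the counts over all 82 members were 13 higher and 3 lower, and with median-of-ratios factors 14 and 3. The share of all genes past 1.2-fold was not counted with these factors, so these counts cannot be set beside one. The direction of most nuclear members also differed from that of most genes: 53 of 82 were above a ratio of 1 (64.6%), against 33.3% of all genes past the same UMI threshold. The log2 ratio had a median of 0.06 over nuclear members and 0.11 over mitochondrially encoded ones, beside -0.10 over all genes and -0.07 over genes as abundant. The split depends on the scaling: TMM moves the median log2 ratio of all genes to 0.01, and with it 73 of 82 nuclear members (89.0%) were above 1 and all genes were at 51.7%. Relative to the ratio of the median gene, a measure that no size factor can change, the nuclear sum stood at 1.13 and the mitochondrially encoded sum at 1.15. Over the other choices of cells and cluster shares these ran from 1.09 to 1.13 and from 1.13 to 1.19. Whether they exceed the spread between mice cannot be told with 1 library per group.

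**Figure D1:**
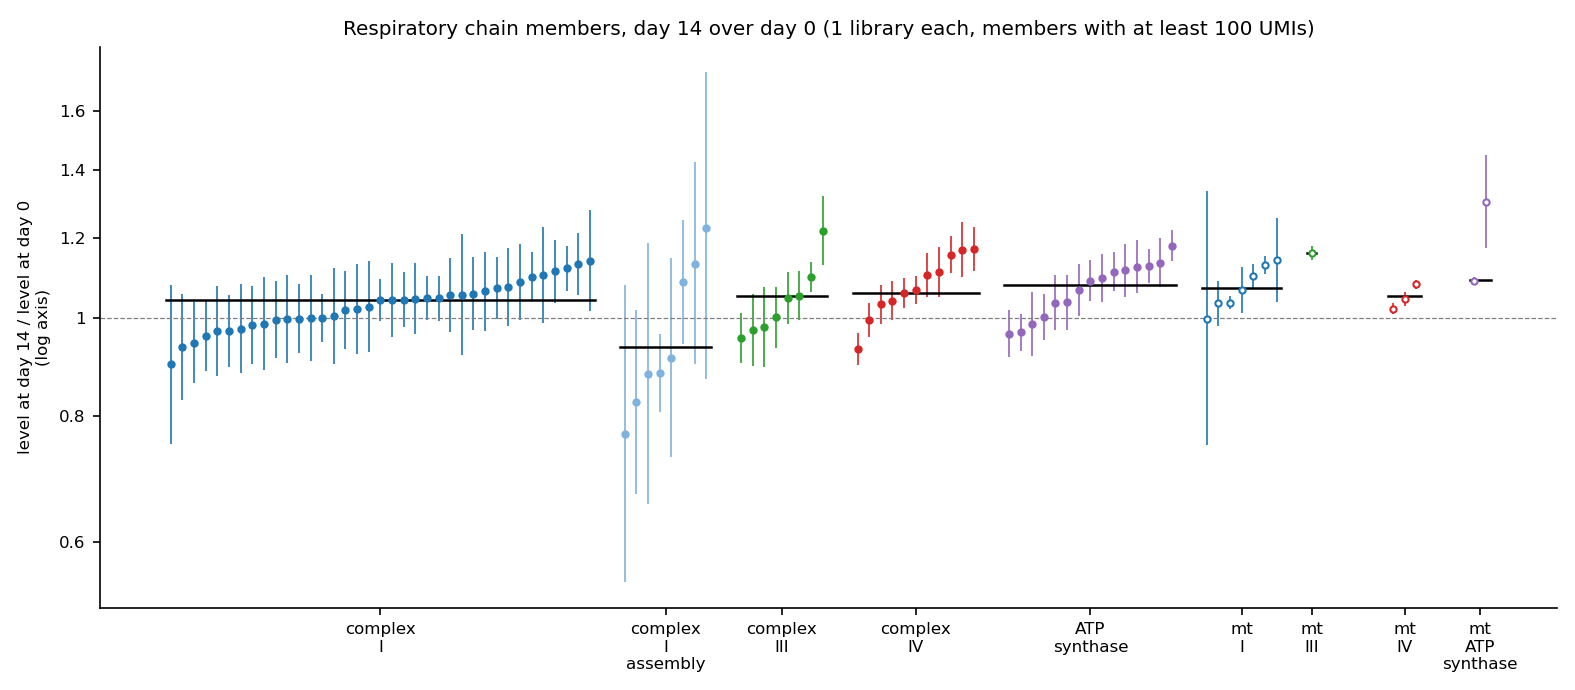
Level at day 14 over level at day 0 (log axis) for each member with at least 100 UMIs over both libraries, grouped by complex and sorted within it, with bars for 95% counting intervals and black lines for the ratio of the summed group. Filled circles are nuclear genes and open circles mitochondrially encoded ones. Group sums lie between 0.937 (complex I assembly, 1.01 with TMM factors) and 1.16 (mitochondrially encoded complex III).

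Complex I, the NADH dehydrogenase and the largest enzyme of the chain, was measured through 37 nuclear subunit genes. Their sum was 4932 CPM at day 0 and 5131 CPM at day 14, a ratio of 1.04 (1.03 to 1.05), and 24 of 37 were above 1. None reached 1.2-fold in either direction, with single genes between 0.899 (Ndufs1, which carries iron-sulfur clusters) and 1.14 (Ndufa8). Ndufa2, an accessory subunit and the most abundant, stood at 345 and 360 CPM. Ndufb5, of the membrane arm, stood at 158 and 178 CPM, a ratio of 1.13 (1.05 to 1.21). At the low end Ndufc2 stood at 98.6 and 93.2 CPM (0.945) and Ndufb4 at 131 and 125 CPM (0.959), both with intervals that include 1 and both above 1 with TMM factors (1.02 and 1.03).

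Ndufa4 is grouped with complex I by its symbol, although its protein is now assigned to complex IV. It stood at 298 and 333 CPM, a ratio of 1.12 (1.06 to 1.18). Without it complex I had a ratio of 1.04 (1.02 to 1.05), and complex IV with it 1.06 (1.05 to 1.07).

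The 8 Ndufaf genes encode factors that help assemble complex I and are not part of the finished enzyme. Their summed ratio was the lowest of the groups, with 231 CPM at day 0 and 217 CPM at day 14, a ratio of 0.937 (0.882 to 0.995) that was 1.01 with TMM and with median-of-ratios factors. This sum rests mainly on Ndufaf8, which stood at 111 and 98.3 CPM, a ratio of 0.882 (0.807 to 0.963). Of the others, 3 were above 1 and 4 below it. Ndufaf5 (54 and 95 UMIs, ratio 1.23), Ndufaf3 (0.825) and Ndufaf6 (0.768) were past 1.2-fold, and the interval of each includes 1. Ndufaf2 (1.13) and Ndufaf4 (1.08) lay between.

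Complex III hands electrons from ubiquinol to cytochrome c. Its 8 Uqcr genes summed to 1929 and 2028 CPM, a ratio of 1.05 (1.03 to 1.07), with 5 of 8 above 1. Cyc1, the cytochrome c1 of this complex, is not matched by the symbols and is given below with other lists. Uqcr11, a small subunit at the edge of the complex, was the one nuclear subunit gene over 1.2-fold higher: 121 CPM at day 0 and 148 CPM at day 14, a ratio of 1.22 (1.13 to 1.32). Uqcrh, the hinge subunit that contacts cytochrome c1 and the most abundant of the 8, stood at 663 and 727 CPM (1.10, 1.06 to 1.14). Uqcr10 stood at 253 and 242 CPM (0.955) and the core subunit Uqcrc1 at 124 and 121 CPM (0.974), with intervals that include 1, and with TMM factors they were at 1.03 and 1.05.

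Complex IV, cytochrome c oxidase, reduces oxygen. Its 13 nuclear genes summed to 4927 and 5209 CPM, a ratio of 1.06 (1.04 to 1.07), and 9 of 13 were above 1. Cox4i1, the regulatory subunit (chr8:120668222-120674207, plus strand), was the most abundant nuclear member of all at 811 and 864 CPM (1.07, 1.03 to 1.10). Cox7a2 stood at 301 and 352 CPM (1.17, 1.11 to 1.23), Cox7b at 199 and 233 CPM (1.17, 1.10 to 1.24) and Cox6c at 428 and 494 CPM (1.15, 1.11 to 1.204). Cox7c was the lowest of the abundant ones, at 598 and 557 CPM (0.932, 0.897 to 0.967), and was level with TMM factors (1.001). Cox7a2l, a Cox7a2 relative known to tie complex III to complex IV in supercomplexes, was level at 550 and 547 CPM.

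ATP synthase, which turns the proton gradient into ATP, had the highest summed ratio of the nuclear groups, which are formed by symbol. Its 16 Atp5 genes summed to 4717 and 5082 CPM, a ratio of 1.08 (1.06 to 1.09), and 12 of 16 were above 1. Atp5e, the epsilon subunit of the central stalk, stood at 617 and 727 CPM (1.18, 1.14 to 1.22). Atp5l, subunit g of the membrane part, stood at 530 and 596 CPM (1.13, 1.08 to 1.17). Of the catalytic head, Atp5b (beta) stood at 471 and 456 CPM (0.967, 0.928 to 1.01) and Atp5a1 (alpha) at 289 and 279 CPM (0.965, 0.914 to 1.02), and both were at 1.04 with TMM factors.

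Among the mitochondrially encoded genes 12 of 13 were above 1. mt-Atp6, the proton channel subunit of ATP synthase, gave the most UMIs, at 7840 and 8523 CPM (1.09, 1.08 to 1.10), followed by the complex IV subunit mt-Co3 at 6700 and 7229 CPM (1.08, 1.07 to 1.09). Together these neighbouring genes held 23.9% and 20.4% of mitochondrially encoded UMIs at day 0 and 24.2% and 20.5% at day 14. mt-Cytb, the cytochrome b of complex III, stood at 3234 and 3748 CPM, a ratio of 1.16 (1.14 to 1.18). The other complex IV subunits were closer to 1, with mt-Co1 at 5168 and 5278 CPM (1.02, 1.01 to 1.03) and mt-Co2 at 2847 and 2972 CPM (1.04, 1.03 to 1.06).

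The complex I genes of the mitochondrial chromosome ranged widely in UMIs. mt-Nd1 stood at 3402 and 3522 CPM (1.04), mt-Nd4 at 1839 and 2074 CPM (1.13, 1.11 to 1.15) and mt-Nd2 at 1012 and 1112 CPM (1.10). mt-Nd3 at 311 and 321 CPM (1.03) and mt-Nd5 at 292 and 311 CPM (1.06) were lower. mt-Nd4l had 84.8 and 96.7 CPM (1.14). mt-Nd6, the one gene of the set on the minus strand, had 84 and 120 UMIs (0.997, 0.748 to 1.33). Counts from a 3′ kit are not scaled to gene length and depend on where priming occurs, so these levels rank UMIs and not transcript numbers.

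The highest single ratio of all 95 members was that of mt-Atp8, at 67.1 and 87.4 CPM (1.302, 1.17 to 1.45). It is also the gene that shares the 43 bases printed above with mt-Atp6, which had 117 times its UMIs at day 0 and 97.6 times at day 14. Whether the shared bases have a part in its ratio was not tested. mt-Nd4l lies in the same situation beside mt-Nd4, which had 21.7 and 21.5 times its UMIs.

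Several subunits exist as isoforms from separate genes, and in each set the form known from most tissues supplied nearly all UMIs or the sets were mixed. Cox4i1 held 100% and 99.9% of Cox4 UMIs, Cox6a1 99.4% and 100%, and Cox6b1 99.6% and 99.8%. Cox7b and Cox8a held all UMIs of their sets, with Cox7b2, Cox8b, Cox8c and Ndufa4l2 at 0 of 8690102 and 12317052 UMIs, which allows each a level of up to 0.371 CPM at day 0 and 0.259 CPM at day 14 (3 UMIs). A second, overlapping Atp5o entry was also at 0. All 6 UMIs of Cox4i2, the isoform known from lung, came from 3 day 14 cells, 1 of which held 4. The c-ring subunit of ATP synthase, one mature protein made from 3 genes, was mixed: Atp5g2 held 51.8% and 52.8%, Atp5g1 28.2% and 29.1% and Atp5g3 19.99% and 18.1%.

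To read the members by B cell state, cells were clustered without any member gene, which gave 12 clusters. One was plasma-like by its markers: Jchain, Slpi, Ly6c2, Tnfrsf17 and Fkbp11 were among its 10 leading genes, and immunoglobulin made 54.7% and 41.9% of its UMIs. It holds 25 cells at day 0 and 30 at day 14. A cluster led by Pclaf and Rgs13 mixes cell cycle and germinal center genes (34 and 17 cells), another is led by Cfp, Grn and Srm with ribosome biogenesis genes (198 and 464), and another by heat shock genes (32 and 74). The 8 other clusters, with 3001 and 4107 cells, are led by genes such as Tifa, S1pr4, Notch2, Egr1 or, in 9 and 382 cells, the interferon-inducible Tgtp2. The clusters set apart from these 8 are also those with the highest and the lowest nuclear member levels on both days. At day 0 they stood at 12946 and at 20638 to 26011 CPM, and the 8 at 15278.5 to 16693 CPM. This split by itself narrows the range of the 8 in that level and widens contrasts with them.

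The balance of the genomes needs no denominator, and in it the plasma-like cluster was the lowest of the 12 on both days. Its cells had 1.14 (1.10 to 1.18) mitochondrially encoded UMIs per nuclear member UMI at day 0 and 0.775 (0.750 to 0.801) at day 14. The 8 other clusters pooled had 2.09 and 2.18, and singly lay between 1.94 and 2.23 at day 0 and between 2.03 and 2.46 at day 14. The cluster led by Pclaf had 1.27 and 1.202, that led by Cfp 1.52 and 1.55, and the heat shock cluster 2.22 and 2.37. At day 14 the plasma-like cluster was the only one of 12 with more nuclear than mitochondrially encoded member UMIs.

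**Figure D2:**
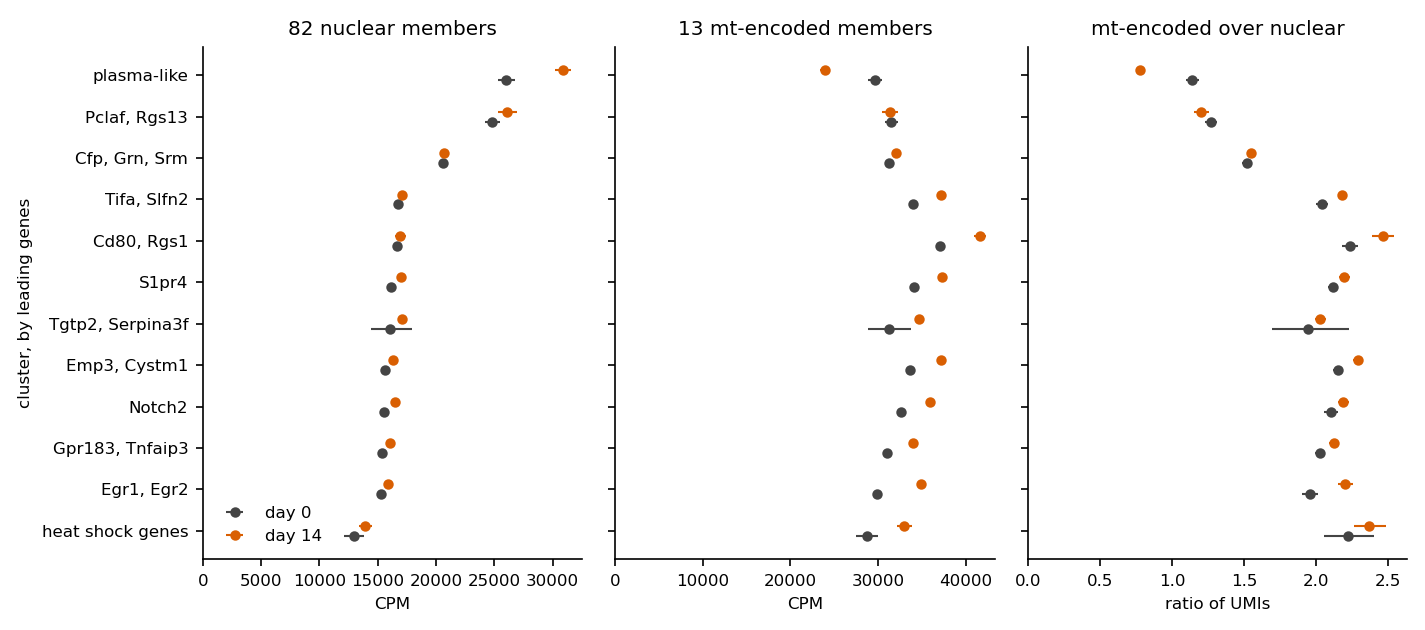
Summed nuclear members (left) and mitochondrially encoded members (middle) in CPM, and mitochondrially encoded UMIs per nuclear member UMI (right), for 12 clusters named by leading genes and for each day, with 95% counting intervals, 1 library per day. The plasma-like cluster has the highest nuclear level and the lowest ratio on both days.

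The levels behind this ratio were as follows. Nuclear members stood at 26011 CPM (day 0) and 30897 CPM (day 14) in plasma-like cells, against 15843 and 16633 CPM in the 8 other clusters. Mitochondrially encoded members stood at 29654 and 23950 CPM, against 33137 and 36337 CPM. Per cell the nuclear level ranged from 10481 over a median of 24056 to 38055 CPM at day 0, and from 17853 over 30667 to 39545 CPM at day 14, so that single cells of the 2 libraries overlap widely. The mitochondrially encoded level had cell medians of 27455 and 23232 CPM, with 1 cell at 135018 CPM at day 0. Without the highest cell of each library the sums were 28767 and 23438 CPM.

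Between the days the plasma-like nuclear level had a ratio of 1.19 (1.15 to 1.23) and the mitochondrially encoded level 0.808 (0.779 to 0.837). In the 8 other clusters the latter ran from 1.09 to 1.17. In the heat shock cluster it was 1.15, and in the cluster led by Cfp it was 1.02 (1.01 to 1.04). In the Pclaf cluster it was 0.996, with 1 day 0 cell at 312073 CPM and cell medians of 28657 and 33804 CPM. Nuclear ratios were above 1 in 12 of 12 clusters and mitochondrially encoded ratios in 10 of 12.

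These plasma-like levels, unlike the ratio of the genomes, depend on the denominator. Immunoglobulin is left out of it, but the joining chain gene Jchain is not and made 16.0% of it at day 0 and 7.78% at day 14. With Jchain also left out, plasma-like cells had 1.96 and 2.01 times the nuclear level of the 8 other clusters, in place of 1.64 and 1.86. Their mitochondrially encoded level was then 1.07 (1.04 to 1.09) times at day 0, in place of 0.895, and 0.715 at day 14, in place of 0.659. With all UMIs as the total of CPM, immunoglobulin included, nuclear members in plasma-like cells stood at 11434 and 17529 CPM, and mitochondrially encoded ones at 13035 and 13588 CPM. On that scale the plasma-like mitochondrially encoded ratio between the days was 1.04, and their nuclear level at day 0 was 0.723 times that of all other cells. In UMIs per plasma-like cell, nuclear members gave 202 and 283, and mitochondrially encoded ones 231 and 219.

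Within plasma-like cells the complexes were not equally high. Against the 8 other clusters the summed complex I genes stood at 2.21 times at day 0 (2.11 to 2.32) and 2.30 times at day 14 (2.21 to 2.38). ATP synthase stood at 1.51 and 1.93 times, complex III at 1.51 and 1.78 times and complex IV at 1.29 and 1.44 times. The assembly factors of complex I stood at 1.04 and 1.08 times, with intervals that include 1. With Ndufa4 counted in complex IV instead, complex I stood at 1.99 and 2.18 times and complex IV at 1.53 and 1.58 times. The order of complex I above complex IV was the same on both days and in both groupings.

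There were 73 nuclear members at or above 384 UMIs, and 43 of them were 1.5-fold higher in plasma-like cells on both days, where 15.9% of 4506 genes as abundant were. These were 25 of 37 genes of complex I, 8 of 15 of ATP synthase, 6 of 11 of complex IV, 4 of 8 of complex III and 0 of 2 assembly factors. The median gene as abundant stood at 0.770 and 0.820 times the other clusters. One member was 1.5-fold lower on both days, Cox7a2l, where 30.3% of genes as abundant were.

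**Figure D3:**
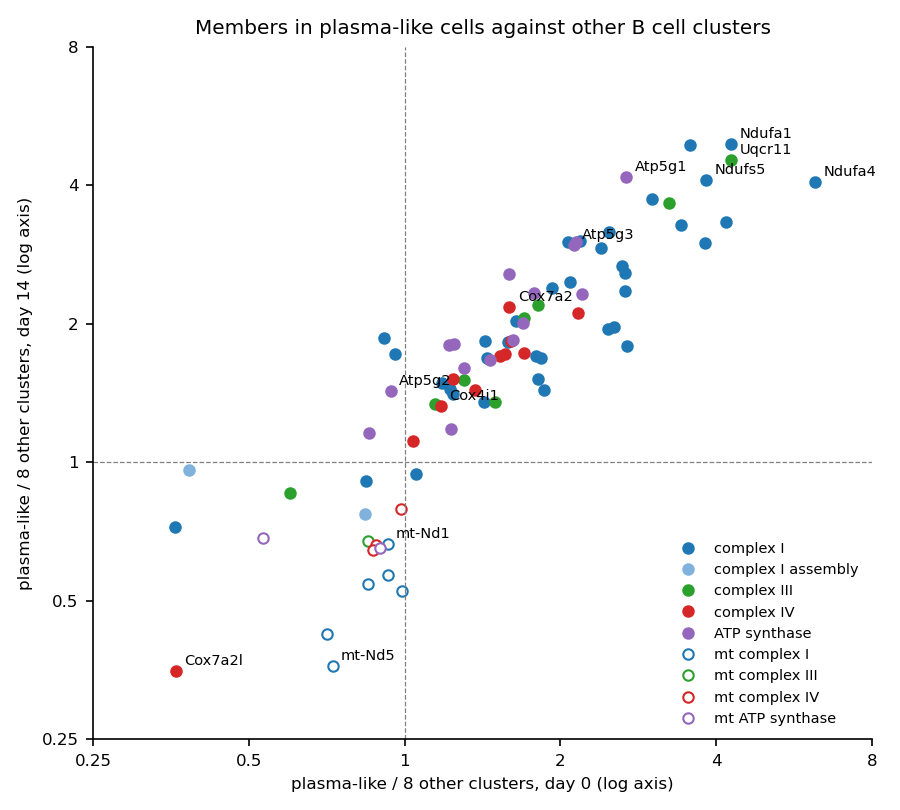
Level in plasma-like cells over level in the 8 other clusters at day 0 (x) and day 14 (y), both log axes, for each member with enough UMIs, coloured by complex. Filled circles are nuclear and open circles mitochondrially encoded genes. Ndufa4 lies furthest right at 6.21, and Cox7a2l lies at the lower left at 0.362 and 0.351.

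The genes at the upper end were named after their values were seen. Ndufa4 (chr6:11900292-11907497, minus strand) stood at 1513 CPM in plasma-like cells and 244 CPM in the 8 other clusters at day 0, 6.21 times (5.46 to 7.03). At day 14 it stood at 1166 and 286 CPM, 4.07 times (3.62 to 4.58). It was above the level of the other clusters in 24 of 25 and 30 of 30 plasma-like cells, and single other clusters of the 8 lay between 182 and 298 CPM at day 0. Ndufa4 was the most abundant nuclear member in plasma-like cells on both days, in place of Cox4i1 in the library as a whole.

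Other small accessory subunits followed. Ndufa1, needed to assemble the membrane arm, stood at 612 and 751 CPM in plasma-like cells, 4.28 and 4.92 times the other clusters. Uqcr11 stood at 437 and 569 CPM, 4.28 and 4.54 times, and Ndufs5 at 345 and 401 CPM, 3.83 and 4.11 times. Ndufa12 was at 3.57 and 4.90 times and Uqcrq of complex III at 3.25 and 3.66 times. These were above the level of the other clusters in 22 of 25 and 29 of 30 cells for Ndufa1, and in 24 of 25 and 28 of 30 for Ndufs5.

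Among the most abundant genes of the whole libraries, some differed little between the states and others were lower in plasma-like cells. Cox4i1 stood at 1.17 and 1.32 times in plasma-like cells and Cox8a at 1.04 and 1.11 times. Uqcrh was lower at day 0, at 401 against 669 CPM (0.600, 0.473 to 0.751), and stood at 623 against 726 CPM (0.858) at day 14. Cox7a2l (chr17:83501918-83517330, minus strand) stood at 206 against 569 CPM at day 0 (0.362, 0.258 to 0.494) and 197 against 561 CPM at day 14 (0.351, 0.263 to 0.459). It was below the level of the other clusters in 25 of 25 and 29 of 30 plasma-like cells. In the cluster led by Pclaf it stood at 764 and 754 CPM, the highest of the 12 on both days.

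Shares within an isoform set need no denominator, and 2 sets differed between the states. Cox7a2 held 69.2% of the Cox7a2 and Cox7a2l UMIs in plasma-like cells at day 0 (60.5% to 77.0%) and 78.9% at day 14 (73.4% to 83.7%). In the 8 other clusters it held 33.8% and 37.7%. Atp5g1 held 44.1% (37.5% to 50.9%) and 46.8% (42.3% to 51.3%) of the c-ring UMIs in plasma-like cells, against 27.1% and 27.7%. Atp5g2 held 30.2% and 31.0%, against 52.9% and 53.7%. The leading gene of each pair was thus another one in plasma-like cells than in the pooled other clusters, on both days.

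The mitochondrially encoded genes of plasma-like cells had no such upper tail. Against the 8 other clusters 13 of 13 were below 1 on both days, which for day 0 holds only with Jchain in the denominator. By complex they stood at 0.847 to 0.910 times at day 0 and 0.580 to 0.698 times at day 14. mt-Nd5 had 216 against 298 CPM at day 0 (0.725) and 117 against 324 CPM at day 14 (0.360, 0.246 to 0.510). mt-Nd2 stood at 0.707 and 0.424 times. mt-Co1, one of the core subunits of complex IV, was least apart at day 14, with 0.982 and 0.791 times.

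The cluster led by Pclaf and Rgs13 came next in nuclear level, at 24826 and 26114 CPM. Of 73 abundant nuclear members 38 were 1.5-fold higher there on both days, where 18.7% of genes as abundant were. Its upper genes were partly others than in plasma-like cells: Ndufa12 stood at 2.43 and 2.86 times, Atp5g3 at 2.17 and 2.54 times, and the catalytic Atp5b at 2.10 and 2.05 times the 8 other clusters. Ndufa4 stood at 2.10 and 2.13 times. Its mitochondrially encoded level was 31499 and 31388 CPM, while cell medians were 28657 and 33804 CPM. At day 0 the highest of its 34 cells stood at 312073 CPM, and the level without that cell was not computed.

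The cluster led by Cfp, Grn and Srm stood at 20638 and 20695 CPM. There 8 of 73 nuclear members were 1.5-fold higher on both days, where 4.33% of genes as abundant were. ATP synthase led, at 1.46 and 1.36 times the 8 other clusters, with Atp5g1 at 2.12 and 1.84 times and Atp5g2 at 1.81 and 1.74 times. Complex IV stood at 1.17 and 1.16 times.

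The heat shock cluster had the lowest nuclear level, 12946 and 13930 CPM. Of 73 nuclear members 0 were 1.5-fold higher on both days, where 5.04% of genes as abundant were. Lower on both days were 8, namely Atp5g3, Atp5j2, Ndufa1, Ndufb6, Ndufaf4, Cox6b1, Cox7a2 and Uqcrc1, where 11.7% of genes as abundant were.

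Other genes of the pathway, in lists that hold no member, gave 0 of 188 genes 1.5-fold higher and 2 lower at day 14, where all genes gave 2.22% and 7.56%. With TMM factors 0 were past 1.5-fold, and every list sum stood above 1. The lower ones were in the list for expression of mitochondrial DNA: Polg, its DNA polymerase, at 34.7 and 23.1 CPM (0.666, 0.561 to 0.790), and the elongation factor Tefm at 41 and 39 UMIs (0.664, 0.417 to 1.06). Tfam, which packages and transcribes mitochondrial DNA and was the most abundant of the 16, stood at 126 and 137 CPM (1.09, 1.01 to 1.18). The helicase Twnk was at 1.14. The list as a whole had a ratio of 0.970.

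A list of 34 further assembly factors had a summed ratio of 0.942 (0.918 to 0.966), or 1.01 with TMM factors. Most serve complexes III, IV and V, while Acad9, Ecsit, Foxred1, Nubpl, Timmdc1 and Tmem126b serve complex I. Of the 34 genes 11 (32.4%) were above 1, close to the 33.3% of all genes. The copper chaperone Cox17, the most abundant, stood at 257 and 231 CPM (0.898, 0.848 to 0.951), Coa4 was lowest at 0.698, and Lyrm7 and Taco1 were highest at 1.27 with 11 and 20 UMIs each. The 4 subunit genes of complex II, which links the chain to the citric acid cycle, summed to a ratio of 1.02, and cytochrome c (Cycs, 0.989) with Cyc1 (0.963) to 0.981. A list for ADP, phosphate and ATPase control had a ratio of 1.001 over 12 genes. Besides carriers it holds Minos1, Atpif1, the Higd and Vdac genes and Usmg5 (376 and 340 CPM, 0.903, 0.861 to 0.947), an ATP synthase subunit outside the Atp5 symbols. There the ADP carriers Slc25a5 (491 and 543 CPM, 1.11) and Slc25a4 (1.16) lay above 1 and the uncoupling protein family gene Ucp2 at 200 and 160 CPM (0.799, 0.747 to 0.855) below.

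The mitochondrial ribosome, which translates the mt- genes, had a summed ratio of 1.0006 over 77 genes, 29 above 1. Its most abundant gene Mrpl52 had also the highest ratio, at 198 and 273 CPM (1.38, 1.296 to 1.46), and Mrpl1 the lowest (0.801). The 9 regulators of mitochondrial biogenesis summed to 0.968, with Nrf1 at 1.09, Yy1 at 0.967 and Ppargc1a at 15 UMIs in each library (0.698). The citric acid cycle had a ratio of 0.984 over 14 genes, with Mdh2 at 1.03, Idh3a at 1.13 and Idh2 at 16.7 and 11.6 CPM (0.698, 0.546 to 0.892). The list for glycolysis had 1.03 over 20 genes, with Gapdh at 483 and 527 CPM (1.09), Hk2 at 1.35 and the glucose transporter Slc2a3 at 0.687. Its 20 genes also include Mpc1, Mpc2, Pdha1 and Pdk1, which serve or control pyruvate use in mitochondria.

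The share of a cell's UMIs that is mitochondrially encoded is often used to filter cells, which bears on these levels. In the cells analysed its median was 3.12% at day 0 (middle 50% of cells 2.63% to 3.61%) and 3.36% at day 14 (2.85% to 3.96%). Shares over 10% were found in 4 of 3290 and 2 of 4692 cells, with the highest at 23.2% and 16.9%. The log-normalized tables leave out 86 and 88 barcodes of the matrices. In these, shares over 10% were found in 16 of 86 (18.6%, 11.02% to 28.4%) and 26 of 88 (29.5%, 20.3% to 40.2%). With all barcodes the nuclear ratio between the days was 1.03 and the mitochondrially encoded one 1.11, in place of 1.06 and 1.08.

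**Figure D4:**
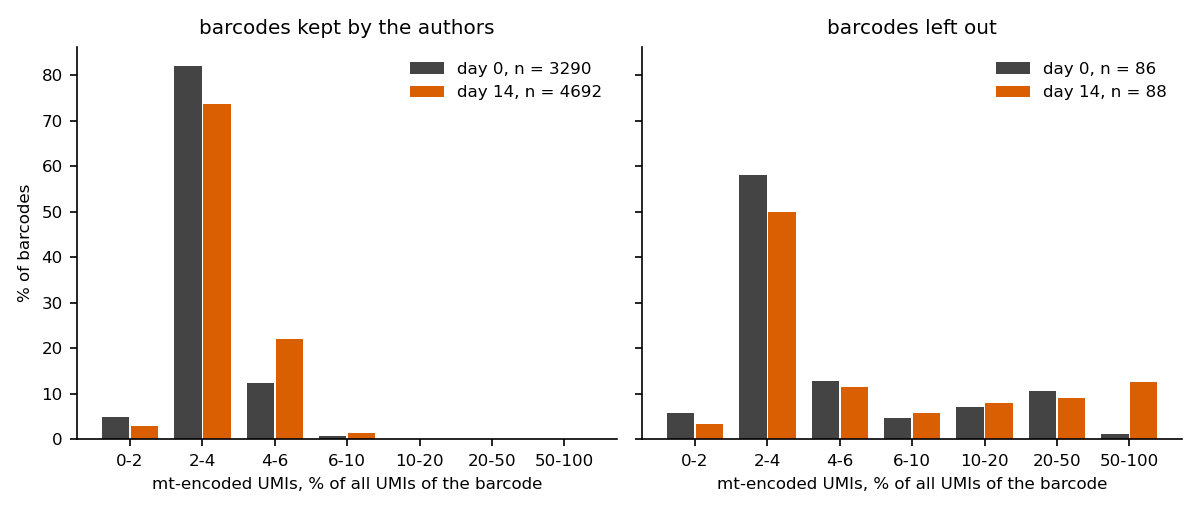
Percent of barcodes (y) by the share of their UMIs that is mitochondrially encoded (x), for the cells kept in the log-normalized tables (left) and the barcodes left out of them (right), with day 0 and day 14 side by side. Shares over 10% are rare among kept cells (4 and 2) and found in 18.6% and 29.5% of the left-out barcodes.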

How the data were processed

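Levels are from the deposited UMI count matrices, which per the file headers come from Cell Ranger 3.0.1; the submitters' processing notes name build mm10 and Seurat 3.0. The sources used here do not state the annotation, alignment or barcode filter. A second deposited table per library is on a natural log scale, UMIs per 10000 of a cell's total plus 1, and all 315840 and 450432 member values compared matched the counts within a relative tolerance of 0.001. These tables set the cells used.

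The members and lists, and the rule for named genes, were chosen with earlier results of these data known. The rule took every mt- gene, isoform sets, and per complex the most abundant gene, those past 1.5-fold and the 2 genes at each end by interval bound. Of each other list it took the most abundant, highest and lowest gene. Genes named for their level in a cluster, and Polg, Ndufs1, Ndufa8, Ndufaf5 and Ndufaf6 were named after their values were seen.

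UMIs were summed per library and divided by UMIs of genes other than immunoglobulin and mt- genes. Ratios have exact conditional, sums exact Poisson and shares Clopper-Pearson 95% intervals (SciPy 1.17.1), with no test, as each group is 1 library. Clusters used the 2000 most variable genes without immunoglobulin, ribosomal protein and member genes, 20 components, 20 neighbours and Leiden resolution 0.8 (Scanpy 1.11.5, leidenalg 0.10.2). Doublets were not removed. TMM factors came from edgeR 4.0.16, used for scaling only. Ratios and intervals were also run on simulated Poisson counts. These hold no spread between cells or mice, so the run checks the calculation only. Gene positions are from GENCODE M21. Scaling, cell choice, count filter, clustering and denominator were varied, the last after seeing the data.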

Additional observations from a re-analysis of the deposited data

Results flagged for a closer look

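In plasma-like cells the summed mitochondrially encoded members had a day 14 over day 0 ratio of 0.808 (0.779 to 0.837), while in the 8 other clusters the ratio ran from 1.09 to 1.17. Between these lay the cluster led by Cfp at 1.02 (1.01 to 1.04) and that led by Pclaf at 0.996, and the heat shock cluster was at 1.15. The plasma-like value rests on 25 and 30 cells and 1 library per day, and this difference between clusters was not tested. It was 0.815 without the highest cell of each library, 0.735 with Jchain left out of the denominator and 1.04 with all UMIs as the denominator, while immunoglobulin made 54.7% and 41.9% of the UMIs of these cells.

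Barcodes left out of the log-normalized tables, which enter only the alternative with all barcodes, held many with a high mitochondrially encoded share. A share over 10% was found in 18.6% of 86 left-out barcodes at day 0 and 29.5% of 88 at day 14, against 4 of 3290 and 2 of 4692 cells kept. Above 50% were 1 and 11 of the left-out barcodes, with the highest at 74.1% and 97.6%. The left-out barcodes had median UMIs of 3211 and 2861.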

How the results depend on the processing

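No paired analysis was possible because each group is 1 library and the labels carry no replicate numbers. The nuclear ratio (1.06) was 1.13 with TMM, 1.14 with median-of-ratios factors, 1.07 with all UMIs as denominator and 1.03 with all barcodes. The mitochondrially encoded ratio (1.08) was 1.16 with TMM and with median-of-ratios factors, 1.09 with all UMIs, thinned to 1000 UMIs per cell or at equal cluster shares, 1.08 without cells over 2 times their cluster's median UMIs and without the plasma-like and Pclaf clusters, and 1.11 with all barcodes. The ratio of nuclear to mitochondrially encoded UMIs between the days (0.981) was 0.924 with all barcodes and 0.966 at equal cluster shares. The count of nuclear members 1.5-fold lower (2) was 1 with all barcodes and without those 2 clusters, and 0 among members with at least 100 UMIs. With members of at least 1 UMI, 1 was higher (Cox4i2). Cox6b2 reversed when thinned (1.05). Genes of other lists past 1.5-fold (2) were 0 with TMM, median-of-ratios factors or all UMIs, 7 thinned, 5 at equal shares and 1 without those clusters. Against all other cells, plasma-like nuclear levels (1.58 and 1.78) were 0.723 and 1.06 per all UMIs and 1.88 and 1.93 without Jchain, and mitochondrially encoded levels (0.902 and 0.674) 0.414 and 0.399, and 1.07 and 0.730. Plasma-like ratios between the days (1.19 and 0.808) were 1.53 and 1.04 per all UMIs and 1.08 and 0.735 without Jchain, and the second was 0.756 as a mean over cells. The denominator and cluster alternatives were chosen after seeing the data. The causes were not tested, except that fewer members or cells enter where a filter or a cluster is left out. Of 396 values of 44 named genes under these settings, 311 stayed within their counting interval, and 33 crossed 1. Of those 10 crossed with TMM and the same 10 with median-of-ratios factors (Atp5a1, Atp5b, Atp5g3, Cox7a2l, Cox7c, Ndufb4, Ndufc2, Uqcr10, Uqcrc1 and mt-Nd6), and of genes past 1.5-fold only Cox6b2 crossed, when thinned. The plasma-like cluster held the same 55 cells in all 4 clusterings. Counting error limits Ndufaf genes, Cox6b2 and single genes in the 25 and 30 plasma-like cells most.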
